A study of Mus musculus with 37 samples.

Results

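Astrocytes from the injured side of the cortex were compared between mice that developed post-traumatic epilepsy (PTE+, 4 libraries) and injured mice in which no seizures developed (PTE-, 10 libraries), which together make up 14 of the 37 libraries of the series. The libraries were chosen by their labels alone, and all genes were followed. All 14 mice were wild-type males of the CD1 strain per the methods (the genotype label reads CD31), had received the same severe controlled cortical impact, a piston blow to the exposed right parietal cortex, and had been recorded by continuous video-EEG. Cells were taken 4 months after the injury. Ipsilateral cortex of 5 sham mice, which had no impact, gave reference values that entered no test. The PTE label rests on whether seizures were seen in the recording window, so it is an outcome of the animals and not a treatment, and each library is 1 mouse. Cells were collected on magnetic beads with the ACSA-2 antibody, which binds an antigen of the astrocyte surface. The mouse names begin with 8 or 9. The labels do not say what this number means, and PTE+ held 1 mouse with 8 and 3 with 9, against 4 and 6 in PTE-.

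Astrocytes take up the glutamate and potassium that neurons release, pass lactate, glutamine and cholesterol to them, and keep the blood-brain barrier. After a trauma they become reactive, with more Gfap and with changes in channels, transporters and secreted factors. Immediate early genes and the inducible chaperones are transcribed within minutes of activity, stress or tissue handling, and their transcripts are short-lived.

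Expression was given as TPM, the share of a library's transcripts that a gene holds after correction for length. The sequencing depth is unknown, so no counting interval can be set on a value. The PTE- library 9_14 stood apart: it had 10727 genes above 0, against 15599 to 18319 in the other ipsilateral libraries. Of the tested genes, 1751 (16.7%) were listed at 0 in it, and 982 of these were above 5 TPM in every other library. Results are therefore given with all 14 libraries and without 9_14, and ranges for PTE- below are over the other 9 libraries. The value of 9_14 stands beside many of these ranges. The label of the cells held in all libraries: all 24 astrocyte markers were above 0 in each, and their summed level was 41483.9 to 47138.6 TPM in PTE+, 35478.6 to 49928.9 TPM in PTE- and 40931.8 TPM in 9_14. Markers of other cells were present as well. In bulk samples, fewer cells of a type and less RNA per cell cannot be told apart.

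Few genes separated the groups. A gene was tested when its mean was above 5 TPM in either group, and it was called a differentially expressed gene (DEG) at an unadjusted limma p under 0.05 with a change of at least 1.2-fold, the thresholds of the study. With all 14 libraries 34 genes (0.325% of 10473 tested) were DEGs higher in PTE+ and 26 (0.248%) were DEGs lower in PTE+. Without 9_14 the counts were 128 higher (1.23% of 10440) and 69 lower (0.661%), and 57 genes were DEGs in both fits, 33 higher and 24 lower. None passed an adjusted p of 0.05 in limma, where the smallest adjusted p values were 0.977 and 0.983. At an unadjusted limma p under 0.05 there were 63 genes with all libraries and 212 without 9_14, and the exact permutation test put 89 and 222 genes at 0.05 or less, all of which are under 5% of the genes tested. The names below are therefore unadjusted calls.

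Direction depended on the scale. Over the genes tested, the median log2 fold change stood at 0.12 (0.08 without 9_14) and 71.6% of genes lay above 0, so a value near 0.1 marks a gene that moved with the bulk of the transcriptome. Higher genes were 56.7% of the DEGs as deposited, 33.3% after quantile normalization (45 higher, 90 lower) and 28% after each library was centred on its median (14 higher, 36 lower). Without 9_14 the share was 65.0% as deposited, 35.7% after quantile normalization (80 higher, 144 lower) and 36.2% after centring (76 higher, 134 lower). The 4 PTE+ values lay above every PTE- value in 4 genes (0.0382%) and below in none (0%). Without 9_14 these numbers were 8 (0.0764%) and 1 (0.00955%).

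**Figure D1:**
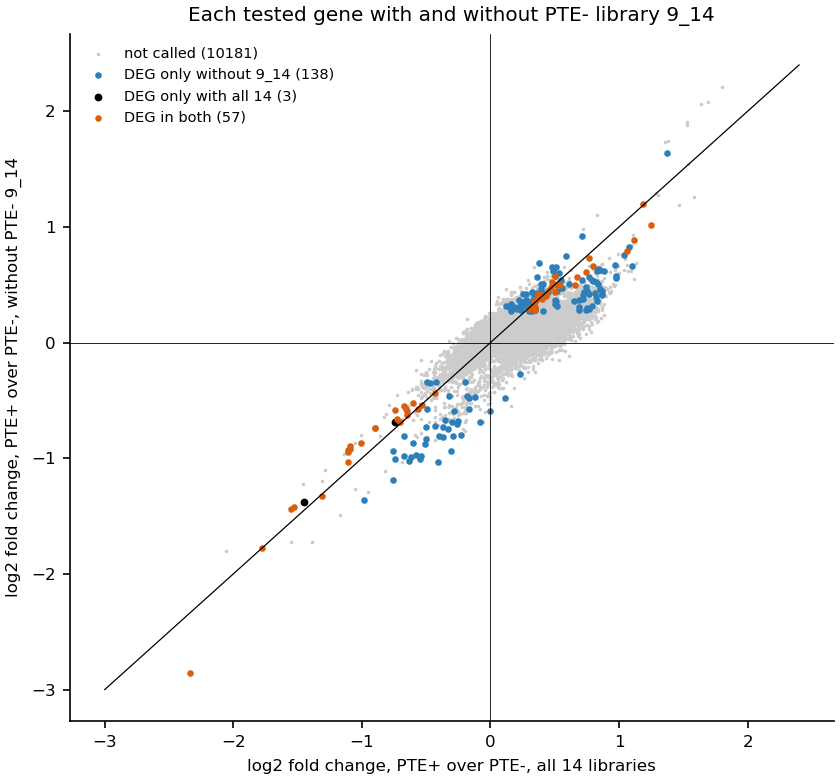
Log2 fold change (PTE+ minus PTE-, log2(TPM + 1)) of each gene tested in both fits, with all 14 libraries on the x axis and without PTE- 9_14 on the y axis. The 57 genes called in both fits, 138 called only without 9_14 and 3 called only with all 14 are coloured, and genes called in neither are grey.

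After Gm10197, a gene listed at 0 in several libraries, the largest decreases called in both fits were those of Fos, Hspa1a and Hspa1b. Hspa1a and Hspa1b encode the inducible HSP70 chaperone and lie next to each other on chromosome 17 (Hspa1a at chr17:34969190-34972156, Hspa1b at chr17:34956436-34959238, mm10). Heat shock factor 1 binds heat shock elements upstream of such genes. The 250 bases before the start of Hspa1a (chr17:34972157-34972406, minus strand), Hspa1b (chr17:34959239-34959488, minus strand) and Hspb1 (chr5:135887669-135887918, plus strand), from RefSeq on GRCm38.p6, are shown 5′ to 3′, with matches to the element GAANNTTC in capitals, because the first pair of genes was called and the third, which carries the same element, was not.
Hspa1a: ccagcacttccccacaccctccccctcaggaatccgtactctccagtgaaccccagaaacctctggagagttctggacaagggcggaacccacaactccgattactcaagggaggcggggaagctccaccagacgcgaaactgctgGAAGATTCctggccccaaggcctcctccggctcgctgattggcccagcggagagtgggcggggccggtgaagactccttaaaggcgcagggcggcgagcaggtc
Hspa1b: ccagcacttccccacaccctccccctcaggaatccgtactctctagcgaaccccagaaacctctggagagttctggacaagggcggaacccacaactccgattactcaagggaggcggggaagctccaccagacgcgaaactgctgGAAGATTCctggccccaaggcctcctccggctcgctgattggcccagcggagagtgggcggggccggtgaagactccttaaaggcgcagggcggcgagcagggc
Hspb1: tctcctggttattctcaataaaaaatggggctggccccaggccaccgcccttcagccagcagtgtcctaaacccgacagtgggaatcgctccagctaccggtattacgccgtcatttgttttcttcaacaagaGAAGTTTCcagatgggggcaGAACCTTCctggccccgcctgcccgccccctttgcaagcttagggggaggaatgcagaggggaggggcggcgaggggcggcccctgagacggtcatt
The Hspa1a and Hspa1b windows were identical at 247 of 250 positions, with 1 match each at bases -104 to -97 from the start. Since the pair are near-copies, the split of reads between them is uncertain. Hspb1, a small heat shock protein, held 2 matches. Over all 27025 genes with a 300-base window (250 before and 50 after the start) 9.04% held the element on either strand, against 10 of 14 heat shock genes with a window.

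In PTE+, Hspa1a was at 5.42, 4.09, 4.12 and 4.26 TPM in mice 8_10, 9_17, 9_18 and 9_19. PTE- libraries ran from 4.09 through a median of 11.1 to 59.2 TPM, 9_14 had 32.1 TPM, and sham ran from 3.98 through 29.9 to 105.4 TPM. The 4 PTE+ mice thus sat at the floor of a wide PTE- range, which overlapped them at its low end. This gave -1.55 ± 0.56 on the log2 scale (SE, n = 4 and 10; two-sided exact permutation p = 0.027) and -1.44 ± 0.52 without 9_14 (exact permutation p = 0.042). Hspa1b followed at -1.53 ± 0.55 and -1.42 ± 0.52. Low values were shared by the PTE+ mice, whereas the shams were as spread as PTE-.

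Of 19 heat shock genes tested, 2 were called lower in both fits, beside 0.248% of all genes (0.661% without 9_14). The other 17 heat shock genes were not called. They include Hspb1 (-0.51, and -0.44 without 9_14), the HSP40 co-chaperone Dnaja1 (-0.08), the co-chaperone Bag3 (0.01), the constitutive HSP70 Hspa8 (-0.06) and Hsf1 itself (0.07), all as log2 fold changes. The median over the 19 genes was -0.06 (-0.03 without 9_14) beside 0.12 and 0.08 over all genes. None of 15 unfolded protein response genes, which include chaperones of the endoplasmic reticulum, was called, with a list median of -0.07 (-0.03 without 9_14). Most members of both lists lay below the median of all genes. Above it were 2 of 19 heat shock genes (3 without 9_14) and 1 of 15 unfolded protein response genes (2 without 9_14).

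Immediate early genes encode transcription factors and regulators that are transcribed within minutes of a stimulus. Of 22 tested, 4 were DEGs lower in PTE+ and none higher, in both fits, beside 0.248% of all genes lower (0.661% without 9_14), and the median log2 fold change was -0.27 (-0.34 without 9_14). Fos (chr12:85473890-85477273), a subunit of AP-1, was at 17.6, 23.7, 24.9 and 42.7 TPM in PTE+ and ran from 32.7 through 83.9 to 452.9 TPM in PTE-, with 89.5 TPM in 9_14. Only PTE+ 9_19 reached into the PTE- range. On the log2 scale PTE+ was lower by -1.78 ± 0.56 (exact permutation p = 0.016), and by the same -1.78 ± 0.56 without 9_14 (exact permutation p = 0.0196). Sham spanned 24.0 to 362.8 TPM with a median of 238.9 TPM, so the lowest shams were as low as PTE+.

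Egr1, a zinc finger factor, was at 5.78 to 12.1 TPM in PTE+ and 6.24 to 56.6 TPM in PTE-, which is -1.31 ± 0.44 in log2 fold change (exact permutation p = 0.019). Junb, a partner of Fos in AP-1, had -1.11 ± 0.44 (exact permutation p = 0.047) and -0.95 ± 0.37 without 9_14 (exact permutation p = 0.0629), where 9_14 was the highest PTE- library at 279.3 TPM. Ier2 had -0.70 ± 0.32 (exact permutation p = 0.0659). In each of the 4 genes the groups overlapped. Jun (-0.52), Zfp36 (-0.60), which destabilizes cytokine mRNA, and the phosphatase gene Dusp1 (-0.45) had values of the same sign but were not called, and Ier5 (0.04), Klf6 (-0.01), Dusp6 (0.08) and Myc (0.32) did not. Fos, Egr1, Hspa1a and Hspa1b remained DEGs in each of the 14 fits that left out 1 library. Among the 3 PTE+ and 5 PTE- mice of prefix 9 (without 9_14) their log2 fold changes were smaller, -1.14 for Fos, -0.87 for Egr1 and -1.03 for both Hspa1a and Hspa1b. The single PTE+ mouse of prefix 8 does not allow the reverse comparison.

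**Figure D2:**
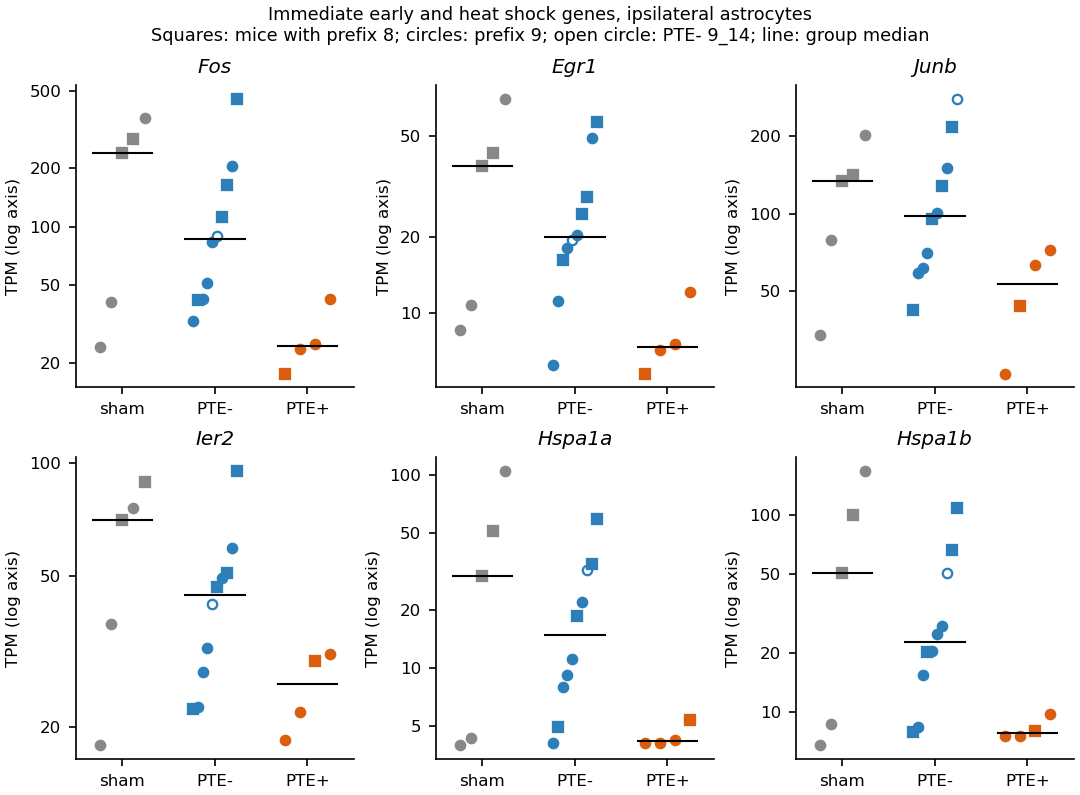
TPM on a log axis of stress and immediate early genes by group. Each point is 1 library (squares, mouse names starting with 8, circles, with 9, open circle, PTE- 9_14) and the line is the group median, with 9_14 included. Fos lies at 17.6 to 42.7 TPM in the 4 PTE+ libraries and reaches 452.9 TPM in PTE-.

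The genes higher in PTE+ came from several functions and were not gathered in 1 of the 51 gene lists. Pam (chr1:97795114-98095646) encodes the enzyme that amidates neuropeptides in secretory granules. It was at 13.6, 26.4, 20.8 and 30.4 TPM in PTE+ against 5.17, 8.43 and 15.2 TPM (lowest, median and highest) in PTE- and 9.65 TPM in 9_14. The 3 PTE+ mice of prefix 9 lay above every PTE- library, and 8_10 lay within the range. PTE+ exceeded PTE- by 1.19 ± 0.32 in log2 units (exact permutation p = 0.005) and by 1.2 ± 0.31 without 9_14 (exact permutation p = 0.00979), and Pam was a DEG in all 14 fits that left out 1 library. Of the other 14 genes for neuropeptide processing and secretion only the imprinted gene Nnat was called, lower in PTE+ (-0.53 ± 0.22).

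Jag2 (chr12:112907819-112929776), a ligand of Notch receptors, was at 13.6, 12.1, 10.1 and 6.89 TPM in PTE+ and at 4.01, 5.63 and 6.77 TPM in PTE-, and was listed at 0 in 9_14. No PTE- library reached the lowest PTE+ library, and this held among the mice of each prefix. The margin was narrow, 6.89 against 6.77 TPM, and sham ran from 5.80 to 9.19 TPM. With all libraries the difference was 1.06 ± 0.45 in log2 units (exact permutation p = 0.024), and 0.79 ± 0.18 without 9_14, where the exact permutation p of 0.0014 is the smallest that 715 splits can give. That p value restates the full separation of the groups. The 15 other tested genes of the Notch pathway were not called, and the median of the list was 0.09.

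Pnpla3 (chr15:84167837-84187236), a lipase of lipid droplets, was at 8.02, 12, 11.3 and 4.42 TPM in PTE+ and at 2.10, 3.34 and 7.76 TPM in PTE-, and was listed at 0 in 9_14. It overlapped through mouse 9_19. It had 1.25 ± 0.46 in log2 fold change (exact permutation p = 0.018), 1.02 ± 0.30 without 9_14. Ttyh2, a chloride channel gene of the Tweety family, was at 54.7, 107.1, 97.3 and 111.2 TPM against 35.4, 62.2 and 79.1 TPM, and again only 8_10 fell within the PTE- range (0.67 ± 0.26, and 0.57 ± 0.22 without 9_14). Ddit4l, an inhibitor of mTOR signalling, had 0.77 ± 0.33 (exact permutation p = 0.0539) and 0.73 ± 0.32 without 9_14 (exact permutation p = 0.0825). It was at 59.1 to 154.9 TPM in PTE+ and 22.8 to 98.9 TPM in PTE-. Sham ran from 1.08 to 9.69 TPM for Pnpla3, 55.5 to 84.9 TPM for Ttyh2 and 24.0 to 174.1 TPM for Ddit4l, and overlapped PTE+ in each.

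The genes with all PTE+ values above all PTE- values were Mtmr14, a phosphoinositide phosphatase, the coiled-coil gene Ccdc13, the channel-like gene Tmc6 and Jag2. Mtmr14 was at 28.9, 34.0, 27.1 and 30.8 TPM against 18.6 to 26.4 TPM, with 26.6 TPM in 9_14 (log2 fold change 0.36 ± 0.14, exact permutation p = 0.002). Tmem38a, a potassium channel of the endoplasmic reticulum, separated only without 9_14, at 48.7 to 65.1 TPM against 36.0 to 46.7 TPM, with 61.3 TPM in 9_14 (0.42 ± 0.11 without it, exact permutation p = 0.0014). Mtmr14 and Tmem38a were named because their values separated, so their small permutation p values restate that choice and add no support. In sham Mtmr14 ran from 21.8 to 31.4 TPM and Tmem38a from 34.2 to 50.3 TPM, so both ranges overlapped PTE+.

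**Figure D3:**
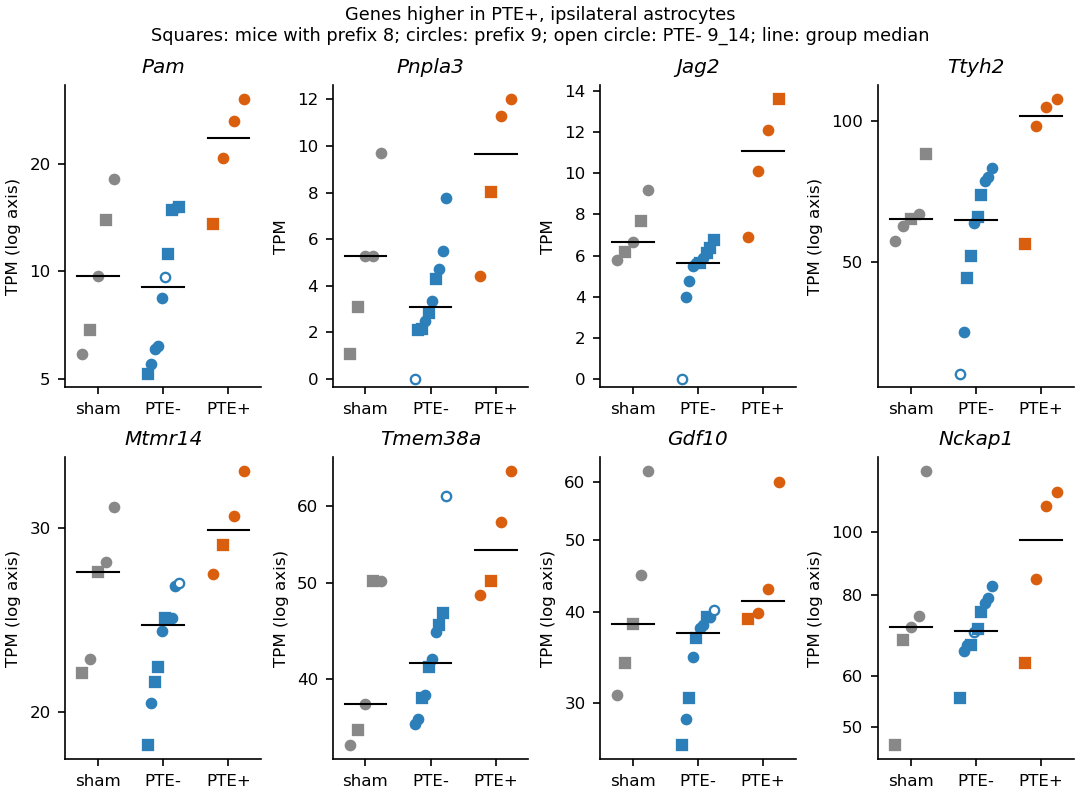
TPM of genes higher in PTE+ by group, drawn as in the plot of stress genes but with a linear axis for Pnpla3 and Jag2. Jag2 lies at 6.89 to 13.6 TPM in PTE+ and at 4.01 to 6.77 TPM in the PTE- libraries other than 9_14, where it is listed at 0.

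Among the 10 largest called increases were 3 zinc finger genes of 1 cluster on distal chromosome 2: Gm14403 (chr2:177498215-177509763), Gm14410 (chr2:177183453-177206421) and Zfp967 (chr2:176521056-176532479). They belong to a young multigene family of near-identical KRAB zinc finger genes, so reads can be shared among copies and the levels of single members are uncertain. Gm14403 was at 18.4, 18, 12.8 and 18 TPM in PTE+ against 5.43, 8.92 and 14.5 TPM in PTE- and 0.94 TPM in 9_14 (1.12 ± 0.43, and 0.89 ± 0.25 without 9_14). Zfp967 had 0.66 ± 0.30 and 0.50 ± 0.15, and Gm14410 had 0.80 ± 0.36 and 0.66 ± 0.30. Pfas, an enzyme of purine synthesis (0.74 ± 0.32), and Kat6a, a histone acetyltransferase (0.54 ± 0.25), complete the 10, but their values were 0.30 and 0.17 after quantile normalization.

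Further genes called in both fits were chosen after their values were seen and stand for no group. Pfn2, a profilin that binds actin, was at 345.1 to 432.9 TPM in PTE+ against 289.4 to 380.0 TPM in PTE-, with 213.3 TPM in 9_14 (0.34 ± 0.12). It was a DEG in each of the 14 fits that left out 1 library. Cfl2, a cofilin that severs actin filaments (0.30 ± 0.11), Nckap1, a subunit of the WAVE complex that drives branched actin (0.35 ± 0.15), Macf1, which links microtubules to actin (0.47 ± 0.21), and the kinesin gene Kif1b (0.40 ± 0.15) were also higher. In the list of WAVE and actin remodelling genes, which does not hold all of these, Nckap1 was the 1 of 25 called and the median was 0.08. Among secreted and signalling genes, Edn3, an endothelin, was at 14.6 to 19.2 TPM against 8.72 to 15.3 TPM (0.50 ± 0.22 with 9_14 included). In 9_14 Edn3 was at 20.5 TPM, above every PTE+ library. Gdf10, a growth factor of the BMP family, had 0.35 ± 0.16, and Gna12, a G protein subunit, had 0.35 ± 0.14. Epas1, the hypoxia-inducible factor HIF-2α, had 0.48 ± 0.22, and Sat1, which breaks down polyamines, had 0.35 ± 0.15.

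Some genes of motile cilia were called lower in PTE+. Cilia of this kind are borne by ependymal cells, which line the ventricles, and their genes are not typical of cortical astrocytes. In the list of ependymal and motile cilia markers 1 of 12 tested genes was a DEG with all libraries and 4 of 13 without 9_14, all lower, beside 0.248% and 0.661% of all genes. Without 9_14 none of the 13 lay above the median of all genes, and the list median was -0.36 (-0.42 without 9_14). The list means of the groups overlapped, and in the mice of prefix 9 alone the median over the 12 genes was -0.06 with 9_14 and -0.30 without it. Spef1, a microtubule protein of the ciliary axoneme, was at 9.67, 5.72, 5.86 and 8.67 TPM in PTE+ and at 8.15, 12.3 and 16.1 TPM in PTE-, with 13.8 TPM in 9_14 (-0.65 ± 0.24, exact permutation p = 0.00899). Mia had -1.03 ± 0.29 without 9_14 (exact permutation p = 0.00699), Tmem212 had -0.94 ± 0.31 (exact permutation p = 0.0308) and Ccdc153 had -0.94 ± 0.34 (exact permutation p = 0.035). With 9_14, in which Mia was at 0.11 TPM and Ccdc153 at 0.51 TPM, these were not called (-0.41, -0.76 and -0.31).

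Sntn, a protein of the ciliary tip, was the 1 gene with every PTE+ library below every PTE- library other than 9_14, in which it was listed at 0. Its values were 5.94, 2.97, 5.94 and 7.38 TPM in PTE+ and 7.48, 11.1 and 19.3 TPM in PTE- (-0.99 ± 0.25 without 9_14, exact permutation p = 0.0014). Sntn was named for this separation, so the p value restates it. Sham ran lower than PTE-, from 1.17 through 5.56 to 10.5 TPM. Further ciliary genes outside the lists were picked after their values were seen because they were called lower, so the choice fixes their sign. Cetn4 (-1.01), Pifo (-0.73) and Iqca (-0.90, values from all 14 libraries) were DEGs in both fits. Stoml3 (-1.19), Calml4 (-1.01), Lrrc36 (-0.98), Ccdc113 (-0.88) and Mlf1 (-0.82, values from the fit without 9_14) were DEGs only without 9_14. The summed level of all 17 ependymal markers was 474.8 to 737.9 TPM in PTE+, 567.2 to 1469.2 TPM in PTE-, 477.2 TPM in 9_14 and 309.1 to 999.2 TPM in sham, and all 17 were above 0 in each of 13 injured libraries. The part of ependymal cells in the cell isolate was not tested.

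Of 4 erythrocyte markers tested, 2 were called lower in both fits, beside 0.248% of all genes (0.661% without 9_14). Hba-a1, an α-globin of red cells, was at 553.4, 597.9, 466.8 and 228.6 TPM in PTE+ and at 218.9, 930.1 and 1676.2 TPM in PTE-, with 2988.1 TPM in 9_14 (-1.11 ± 0.50, exact permutation p = 0.0739). Hbb-bt followed (-1.09 ± 0.50, exact permutation p = 0.0729), while Hbb-bs missed the call (-1.01 ± 0.52). Hba-a1 and Hbb-bt were each a DEG in only 5 of the 14 fits that left out 1 library. The groups overlapped, and the highest sham reached 5104.8 TPM of Hba-a1. Globin transcripts are markers of red cells. Whether red cells carried into the isolate gave them was not tested, nor was the part of such cells in other differences. The summed erythrocyte markers were 502.2 to 1650.0 TPM in PTE+ and 522.1 to 3836.7 TPM in PTE-, and the erythroid anion exchanger Slc4a1 was at 0 in all 13 libraries.

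None of the 14 tested microglial markers was called with all libraries. Tyrobp, a signalling adaptor of myeloid receptors, was the 1 of 15 called without 9_14 (-0.80 ± 0.35, exact permutation p = 0.0769), beside 0.661% of all genes called lower. The median was -0.20, and -0.59 without 9_14, where none of the 15 lay above the median of all genes. Over the members tested with all libraries, the median ranged from -0.56 without 9_14 to 0.06 without PTE+ 9_19, and it was 0.08 among prefix 9 mice with 9_14 and -0.39 without it. The summed markers were 192.2 to 464.8 TPM in PTE+, 208.5 to 631.9 TPM in PTE-, 120.3 TPM in 9_14 and 139.2 to 1148.3 TPM in sham. No gene of the endothelial (12 tested), mural (9), fibroblast and meningeal (9), oligodendrocyte precursor (10), mature oligodendrocyte (8), neuronal (12), border macrophage (1) or leukocyte (2) lists was called in either fit. Folr1, a folate receptor of choroid plexus, was the 1 of 4 choroid plexus genes called, only without 9_14 (-0.97 ± 0.44, exact permutation p = 0.0825), beside 0.661% of all genes called lower. Medians of the neuronal and mature oligodendrocyte lists were 0.66 and 0.64 with 9_14 and 0.39 and 0.24 without it.

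Sterol synthesis leaned upward across the pathway. Brain cholesterol is made within the brain, in large part by astrocytes, from acetyl-CoA through mevalonate, squalene and lanosterol. None of 24 genes was called with all 14 libraries. Without 9_14, 3 were DEGs, all higher, beside 1.23% of all genes. Above the median of all genes lay 21 of 24 with all libraries and 23 of 24 without 9_14, with list medians of 0.27 and 0.28. All 3 act upstream of squalene. Mvd, mevalonate diphosphate decarboxylase, was at 219.8, 255.1, 223.8 and 265.3 TPM in PTE+ against 114.7, 166.3 and 244.3 TPM in PTE- (0.43 ± 0.16, exact permutation p = 0.0252). Fdps, farnesyl diphosphate synthase, was at 403.8, 456.4, 369.9 and 408.9 TPM against 217.1, 325.0 and 402.9 TPM (0.33 ± 0.13, exact permutation p = 0.0238), and Mvk, mevalonate kinase, was at 100.2 to 103.0 TPM in PTE+ against 60.0 to 110.0 TPM (0.31 ± 0.13, exact permutation p = 0.042). In 9_14 the same genes were at 291.0, 638.7 and 209.4 TPM, above the PTE+ libraries.

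Other genes of the pathway had values of the same sign without a call: Hmgcs1, an early synthase of the mevalonate arm (0.33), Sqle, squalene epoxidase (0.22), and the isomerase Idi1 (0.38), all as log2 fold changes. Ebp was the exception, at -0.07 and 0.01. The mean log2(TPM + 1) over the list was 6.37 in PTE+ 8_10 and 6.86 to 6.91 in the 3 PTE+ mice of prefix 9. In PTE- it was 6.07 to 6.34 for prefix 8 and 6.51 to 6.80 for prefix 9, with 6.13 in 9_14 left out. It was the 1 of 51 lists in which PTE+ lay above PTE- within both prefixes, by a narrow margin, and over both prefixes together the groups overlapped. Sham ran from 5.99 to 7.18, wider than both. Since 51 lists were looked at and prefix 8 rests on 1 PTE+ mouse, this is a description of these libraries.

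**Figure D4:**
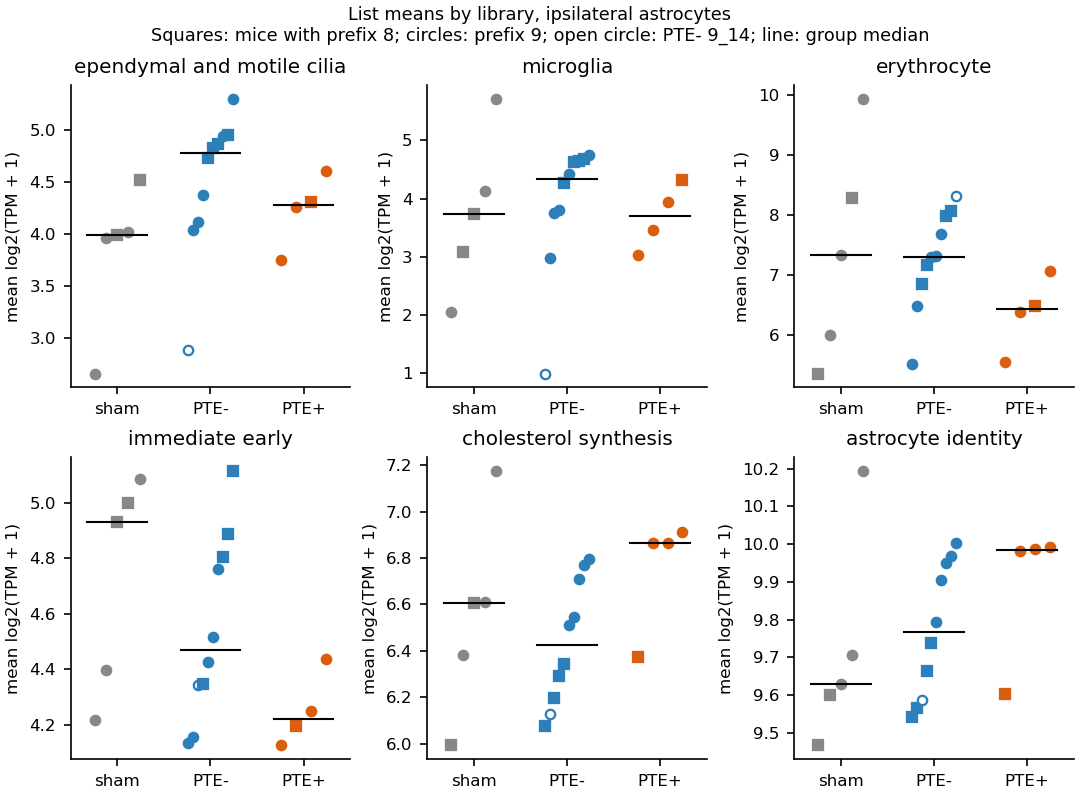
Mean log2(TPM + 1) over the members of selected gene lists, one point per library and the group median as a line, with symbols as in the plot of stress genes. The cholesterol synthesis mean is 6.37 in PTE+ 8_10 and 6.86 to 6.91 in the other PTE+ libraries.

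The core duties of astrocytes showed few calls. All 24 identity markers were tested and none was called, with a median of 0.15 (0.11 without 9_14). Gfap, the intermediate filament of reactive astrocytes, had means of 692.8 ± 275.7 TPM (SD, n = 4) in PTE+, 637.7 ± 240.0 TPM (n = 10) in PTE- and 273.0 ± 74.0 TPM (n = 5) in sham, and the PTE+ to PTE- log2 fold change was 0.15 ± 0.36, or -0.04 ± 0.24 without 9_14. The water channel Aqp4 (0.23 ± 0.17) and the glutamate transporter Slc1a2 (0.20 ± 0.18) were not called. In glutamate and GABA handling 1 of 16 genes was called, the glutamine transporter gene Slc38a3 (0.34 ± 0.16), at 802.1, 1173.8, 860.3 and 1108.4 TPM against 631.9, 699.3 and 1087.4 TPM, and it lost the call without 9_14 (0.30 ± 0.15). Ttyh2 was the 1 of 21 genes called for potassium, water and chloride. The median of that list was 0.22 (0.18 without 9_14), and 16 of 21 genes lay above the median of all genes (17 without 9_14).

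Reactive programs held few calls. None of the pan-reactive (11 tested), neuroinflammatory (10) and ischaemic (6) reactive genes was called with all libraries, with medians of 0.01, 0.12 and 0.14. Without 9_14 the medians were -0.04, 0.04 and -0.14, beside 0.08 over all genes, and no ischaemic gene lay above the median of all genes. Without 9_14, Cxcl10, a chemokine induced by interferon, was called (0.76 ± 0.31), at 9 to 12.9 TPM in PTE+ and 1.62 to 10.8 TPM in PTE-. No gene of interferon and MHC class I (27), gp130 and STAT3 (11), complement (10) or p38, NOD and IL-17 signalling (20) was called in either fit. Their medians were 0.15, 0.08, 0.08 and 0.32 (0.15, 0.08, 0.10 and 0.12 without 9_14). In the p38, NOD and IL-17 list 15 of 20 genes lay above the median of all genes, and 16 of 20 without 9_14. Socs3, which curbs STAT3, had -0.49 ± 0.66 and -0.82 ± 0.42 and was not called.

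Genes of oxidative phosphorylation, glycolysis, the cytosolic ribosome and the proteasome held no call in either fit. The 75 nuclear genes of oxidative phosphorylation had a median of 0.02, the 13 mitochondrial genes 0.01 and 27 genes of glycolysis and lactate 0.08. The 79 ribosomal protein genes had a median of -0.07 and the 31 proteasome genes 0.06. Above the median of all genes lay 8 of 75 nuclear and 2 of 13 mitochondrial oxidative phosphorylation genes (16 and 1 without 9_14). The same held for 4 of 79 ribosomal, 11 of 31 proteasome and 12 of 27 glycolysis and lactate genes (3, 12 and 14 without 9_14). In fatty acid oxidation 1 of 24 genes was called, Bbox1, the last enzyme of carnitine synthesis (-0.60 ± 0.27), and in antioxidant defence 1 of 27, Mgst1, a microsomal glutathione transferase (-0.43 ± 0.17), at 163.1 to 271.6 TPM in PTE+ and 201.9 to 369.9 TPM in PTE-. Outside the lists and chosen after their values were seen, Tyms, thymidylate synthase (-0.74 ± 0.32), and Hdc, which makes histamine (-0.56 ± 0.22), were lower in both fits.

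Among signalling and regulatory lists the calls were single genes. Gdf10 was the 1 of 20 in BMP and TGF-β signalling, and none of 18 Wnt and 10 Sonic hedgehog genes was called with all libraries. The Sonic hedgehog median was 0.52 with all libraries, the highest of the 38 program lists, and 0.23 without 9_14. All 10 of its tested genes lay above 0 in both fits, and 8 lay above the median of all genes (10 without 9_14). The Wnt medians were 0.19 and 0.12. Only without 9_14 were 3 further genes called: Apc, which restrains β-catenin (0.44 ± 0.19), Nfia, a factor that drives astrocyte formation (0.66 ± 0.28), and Kmt2c, a histone methyltransferase (0.57 ± 0.21). Nfia was at 1.03 TPM in 9_14 and at 25.1 to 86.0 TPM in the rest of PTE-. No gene of RNA splicing (42), the circadian clock (17) or the glucocorticoid response (11) was called in either fit. Over all 51 lists 18 of 906 tested genes were DEGs (1.99%) and 29 without 9_14, beside 60 of all 10473 genes (0.573%) and 197 of 10440 without 9_14 (1.89%). Since the lists were chosen with earlier results of these data known, the choice itself can raise their share. In 39 lists no gene was called with all libraries, and in no list did the means of the groups separate fully.

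**Figure D5:**
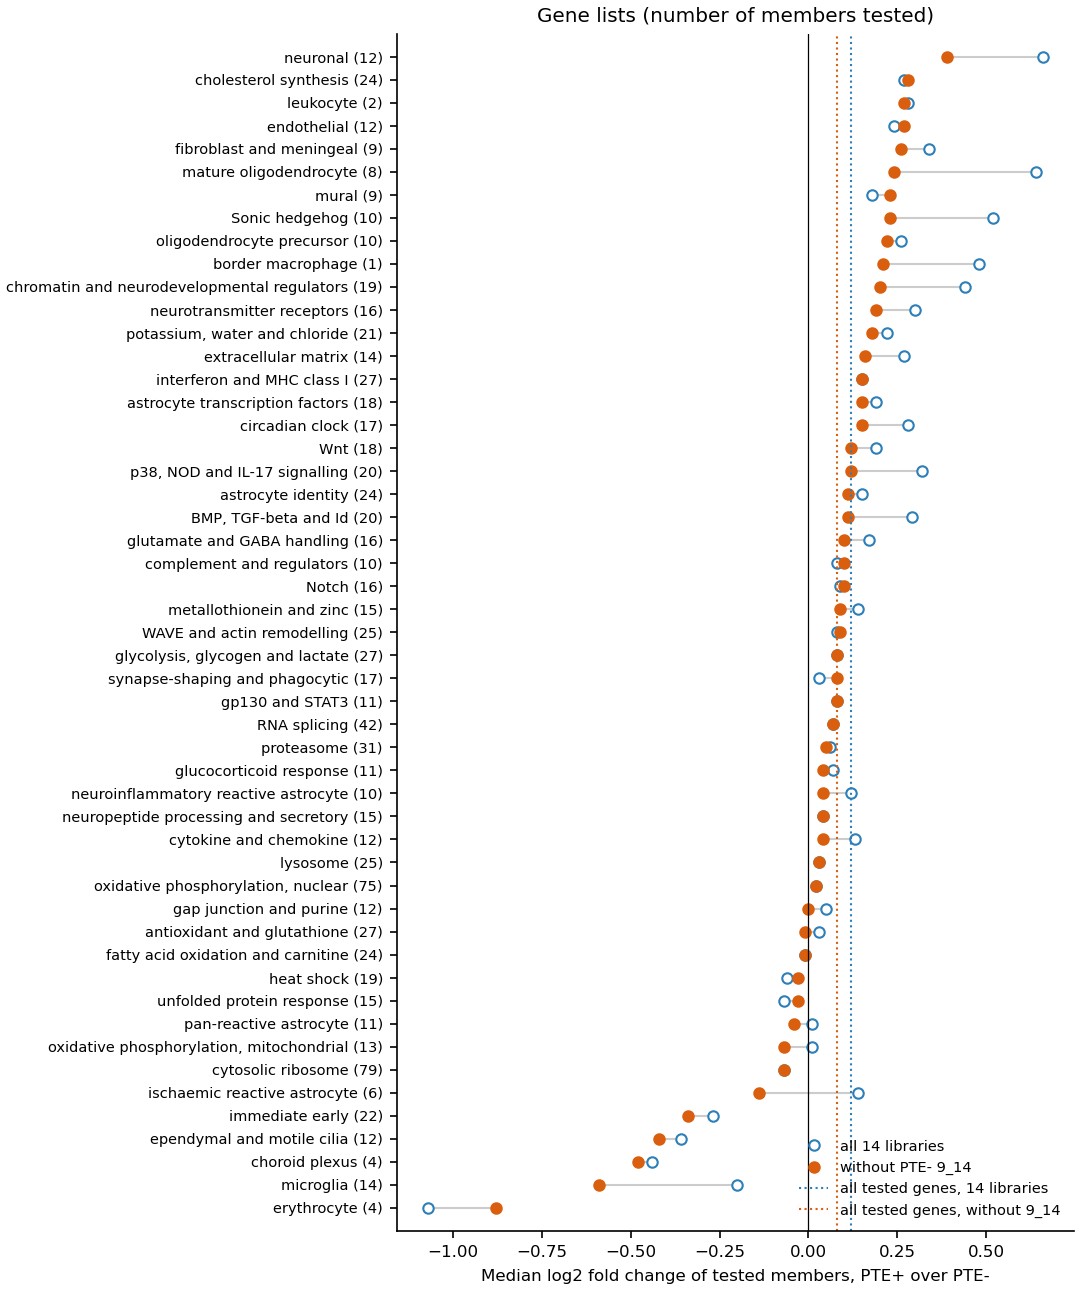
Median log2 fold change (PTE+ minus PTE-, log2(TPM + 1)) of each gene list with all 14 libraries and without PTE- 9_14, with the median of all tested genes (0.12 and 0.08) as lines. Erythrocyte (-1.07 and -0.88), ependymal (-0.36 and -0.42) and immediate early genes (-0.27 and -0.34) lie below the lines, and cholesterol synthesis (0.27 and 0.28) above them.

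The remaining large decreases were in genes of low or uneven expression. Gm10197 (chr19:53371566-53371766), a short annotated gene, was listed at 0 in PTE+ 8_10 and 9_19 and in 9_14, at 28.4 and 20.9 TPM in the other PTE+ mice, and at 11 to 74.8 TPM in the rest of PTE-. Its log2 fold change was -2.34 ± 1.1 (exact permutation p = 0.0519) and -2.86 ± 0.80 without 9_14 (exact permutation p = 0.0154). Tnfsf12, the cytokine TWEAK, was at 0.42, 6.09, 5.95 and 9.02 TPM against 3.65, 10.2 and 18 TPM (-1.11 ± 0.50, exact permutation p = 0.0539). Without PTE+ 8_10, which holds its lowest value, the log2 fold change of Tnfsf12 was -0.49, the end of its range over the libraries left out. Prr29 was at 0.66 to 4.11 TPM against 2.43 to 7.88 TPM and 18.8 TPM in 9_14 (-1.09 ± 0.41, exact permutation p = 0.014).

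The 10 most abundant genes were not called. Apoe, the main lipid carrier made by astrocytes, was at 62824.6, 51504.3, 55379.4 and 52401.2 TPM in PTE+ against 46070.0 to 75116.6 TPM in PTE- (-0.13 ± 0.15). The protease inhibitor Cst3 had -0.26 ± 0.14. Clu, Ckb, Aldoc, Mfge8 and Prdx6 lay between 0.00 and 0.06 in log2 fold change, and the zinc-binding Mt1 had -0.14 ± 0.22.

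The opposite hemisphere of the same mice gave a second reading of the effect. Contralateral libraries came from 4 PTE+ and 9 PTE- mice, of which 3 and 9 also gave ipsilateral ones, so the sides are not independent. Contralateral values came from a joint fit of both sides that included 9_14, so the ipsilateral spread enters their p values. Of the 57 genes called in both ipsilateral fits, 54 had the same sign contralaterally, beside 64.4% of all tested genes. The exceptions were Macf1 (-0.01 contralaterally), Hba-a1 (0.36) and Hbb-bt (0.29). Among the 57, 10 had a contralateral limma p under 0.05 with the same sign: Pnpla3 (1.43), Jag2 (0.99), Ddit4l (0.86), Epas1 (0.60), Nckap1 (0.45), Gdf10 (0.43), Amd1 (0.35), Tpst2 (0.32), Ttc38 (-0.59) and Nnat (-0.76), as contralateral log2 fold changes. Fos (-1.10), Hspa1a (-0.85) and Pam (0.68) were not among them.

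The difference in effect between the sides was tested directly. The test found 9 of 10681 genes (0.0843%) at an unadjusted limma p under 0.05 and none at an adjusted p under 0.05, with a smallest adjusted p of 1.0. With the mouse as a replicate block, over the 12 mice that gave both sides, 332 of 10683 genes (3.11%) were under 0.05 unadjusted and none adjusted (smallest adjusted p 0.997). None of the 57 genes was among the 9. With the mouse block, 3 of the 56 that were measured there were under 0.05: Pfas (unadjusted limma p = 0.0159), Gm14410 (0.0202) and Tyms (0.0425). No gene passed the adjusted threshold for a difference between the sides in either fit.

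Transcript length moved with the fold change. Tested genes were put into 4 equal bins by annotated exon length, from 69 to 2710 bp in the shortest bin to 6571 to 41324 bp in the longest. From short to long, the bin medians of the log2 fold change were 0.03, 0.10, 0.15 and 0.21, and 0.02, 0.07, 0.11 and 0.13 without 9_14. Without 9_14, 47 DEGs of the longest bin were higher and 2 lower, against 26 higher and 45 lower in the shortest. The median log2 level of the longest bin minus that of the shortest was -1.60 in PTE+ 8_10 and -1.61 to -1.50 in PTE- of prefix 8, and -1.28 to -1.06 in PTE+ and -1.37 to -1.18 in PTE- of prefix 9 other than 9_14, which was at -1.67. Apart from 9_14, the balance of long and short transcripts thus differed by mouse name prefix, whose share differs between the groups, and its part in the single calls was not tested. With the prefix as a covariate in the 13 libraries 213 genes were DEGs, 135 higher and 78 lower, beside 128 and 69 without it.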

How the data were processed

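Astrocytes were isolated with ACSA-2 beads, and libraries were made from total RNA with the SMART-Seq v4 ultra-low input kit. Per the labels and the methods, the authors trimmed reads with Trim Galore 0.6.4 and quantified genes on mm10 with RSEM 1.2.28 and Bowtie2 2.4.1. The annotation release is not given in the sources used here. The authors deposited TPM per gene, 1 column per library, for 21975 genes. Their own DESeq2 1.36.0 test needs counts and was not repeated here. TPM sets each library to the same total and keeps no depth, so the precision behind single values is unknown, and a gene at 0 is listed as 0 only.

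Values were analysed as log2(TPM + 1), which understates the change of low genes. A gene entered the test when its mean in either group exceeded 5 TPM, and testing used limma 3.58.1 in R 4.3.3 (moderated by a mean-variance trend, only the compared groups in the fit), with Benjamini-Hochberg adjustment over all genes tested. For the opposite hemisphere and the difference between the sides, PTE+ and PTE- of both sides shared a fit, except with the mouse as a block. A DEG has an unadjusted p under 0.05 and a change of at least 1.2-fold. Single genes were also given a two-sided exact permutation test over all 1001 splits (715 without 9_14), whose smallest p values are 0.000999 and 0.0014. Each replicate is 1 mouse.

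The gene lists (13 of cell types, 38 of programs) and the comparison itself were chosen with earlier results of these data known, so lists are described by counts and medians without a test. List means use members with a mean above 1 TPM. Named genes are the 10 largest DEGs in each direction shared by both fits, list members that are DEGs in either fit or else up to 3 members with the largest statistic, the most abundant non-overlapping genes, and the 10 most abundant genes. Others are said to be chosen after their values were seen.

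Mice that gave both sides pair the hemispheres: the deviations of the 2 sides of a mouse from their group means correlated with a median r of 0.394 over 12 mice (-0.00408 to 0.684), against -0.0736 between mice. Alternatives were another pseudocount (0.1), filter, scaling, weighting, covariate or fold, each library left out, and the mouse as a block. Gene positions are those of the GENCODE annotation of GRCm38, the build of the files, and promoter windows are from RefSeq. Some single genes of the lists are not reported here.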

Additional observations from a re-analysis of the deposited data

Results flagged for a closer look

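In 156 sets of values (named genes and list means, each in PTE+ or in PTE-), the highest or lowest library was compared with its neighbour, and 35 stood off from their group by more than a Dixon limit at the 95% level, where chance alone gives about 1 in 20. The PTE- library 9_14 accounted for 27 of these. On the log2(TPM + 1) scale it was at 0.0 for Pnpla3, Jag2, Gm10197, Tmc6 and Sntn, at 0.96 for Gm14403, at 2.42 for Zfp967 and at 4.22 for Ccdc13, below the other PTE- libraries. It was above them for Wdr74 (6.83), Mrpl49 (6.18) and Tmem38a (5.96).

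List means of 9_14 were low as well, again in log2(TPM + 1). Among cell types they were 0.99 for microglia, 0.02 for border macrophages, 1.56 for mature oligodendrocytes and 2.88 for ependymal cells. Among programs they were 1.21 for ischaemic reactive genes, 4.89 for gap junctions and purine signalling, 3.69 for neurotransmitter receptors, 3.82 for extracellular matrix, 6.48 for antioxidant genes, 2.2 for p38, NOD and IL-17 signalling, 2.26 for Sonic hedgehog, 3.45 for BMP and TGF-β, 3.49 for Wnt, 3.7 for the circadian clock, 3.97 for the glucocorticoid response and 1.59 for chromatin regulators.

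The other 8 were spread over 4 libraries. PTE+ 8_10 was above the other PTE+ mice for Hspa1a (2.68) and for the mitochondrial genes of oxidative phosphorylation (11.61), and below them for astrocyte identity (9.6) and cholesterol synthesis (6.37). PTE+ 9_18 was low for Gm14403 (3.79) and PTE+ 9_19 was high for choroid plexus (2.82). PTE- 9_20 was high for leukocytes (3.06) and low for nuclear genes of oxidative phosphorylation (8.49).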

How the results depend on the processing

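The 60 DEGs became 171 with no filter on low values, 135 after quantile normalization, 441 with array weights (0.0336 for 9_14) and 32 at a fold of at least 1.5. Leaving out single libraries gave 23 (without PTE+ 9_17) to 197 (without PTE- 9_14), with 121 without PTE+ 8_10. Settings on libraries without 9_14, added after seeing the data, gave 224 (quantile normalization), 210 (median centring), 213 (prefix as covariate) and 226 (only prefix 9, 8 libraries). No gene had an adjusted limma p under 0.05 in the settings run (0 to 0 over the libraries left out), except 1 without the filter, Kdf1, under 0.5 TPM and chosen after its value was seen. The 4 non-overlapping genes became 7 with no filter, 2 after median centring, 111 among prefix 9 mice, where fewer libraries have to separate, and 4 to 72 as libraries were left out, with 72 without PTE+ 8_10, 19 without PTE+ 9_18, 23 without PTE+ 9_19 and 9 without PTE- 9_14. The 9 genes that differed between hemispheres became 49 without 9_14, 57 after quantile normalization and 332 with the mouse as a replicate block. Except where fewer libraries or genes enter by construction, the cause was not tested.

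Of 378 alternative values for the 20 genes with the largest shared changes, 272 kept the call and 106 lost it, and none changed sign. Of 867 list medians 865 moved by less than the spread between libraries. The medians of some lists still changed sign between settings, with 9 such changes each for pan-reactive genes and mitochondrial oxidative phosphorylation genes. The unknown depth limits every low gene, 4 PTE+ mice limit the group, and prefix 8 holds 1 of them.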

Other observations

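Lists not described above held no DEG in either fit unless named here, and are given as median log2 fold changes with all libraries and without 9_14, beside 0.12 and 0.08 over all tested genes. For the astrocyte membrane, 12 genes of gap junctions and purine signalling had medians of 0.05 and 0.00. The 16 neurotransmitter receptor genes had 0.30 and 0.19, with 12 of them above the median of all genes in each fit. Among the receptors, Grin2c, an NMDA receptor subunit that astrocytes express, was at 178.1, 226.9, 192.9 and 239.2 TPM in PTE+ and at 114.5, 165.3 and 237.3 TPM in PTE- (0.31 ± 0.18, exact permutation p = 0.12), so the groups overlapped.

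Genes that shape synapses (17 tested) had medians of 0.03 and 0.08, and extracellular matrix genes (14 tested) 0.27 and 0.16. Metallothionein and zinc genes (15 tested) had 0.14 and 0.09. The zinc transporter gene Slc30a5 was at 47.2, 52.9, 55.4 and 55.9 TPM in PTE+ and at 39.2, 44.4 and 53.9 TPM in PTE- (0.25 ± 0.12, exact permutation p = 0.011) without meeting the limma threshold. Lysosomal genes (25 tested) had 0.03 in both fits. Cytokine and chemokine genes (12 tested) had 0.13 and 0.04, with Cxcl10 the 1 called without 9_14, and astrocyte transcription factors (18 tested) had 0.19 and 0.15, with Nfia called without 9_14.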
